A study of Mus musculus with 12 samples.

Results

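The IL-36 cytokines are a branch of the IL-1 family. The 5 genes followed here were named by their annotation, with earlier results of these data known. Il1f6 (IL-36α), Il1f8 (IL-36β) and Il1f9 (IL-36γ) encode the agonists. Il1f5 (also named Il36rn) encodes the IL-36 receptor antagonist, and Il1rl2 encodes the receptor chain. All 5 were measured among the 18193 genes of the array, by 7 of its 34945 probe sets that name 1 gene alone. The agonists bind IL1RL2, which then pairs with the IL-1 receptor accessory protein and signals through MyD88 to NF-κB and IκBζ, and the antagonist occupies the same receptor without bringing in the accessory chain. In skin they are mainly keratinocyte products, known for driving neutrophil-rich psoriasiform inflammation, and people who lack the antagonist develop generalised pustular psoriasis.

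Whole skin was profiled on 12 Affymetrix mouse genome arrays in 4 groups of 3: Ahr-/- mice (AhR KO) after 2 days of imiquimod (IMQ), Ahr+/- mice (AhR HET) after 2 days of IMQ, untreated Ahr-/- mice and untreated Ahr+/- mice. AhR, the aryl hydrocarbon receptor, is a ligand-activated transcription factor, and IMQ is a Toll-like receptor 7 agonist that causes psoriasis-like inflammation. The question was how loss of AhR alters the early response to IMQ. Every Ahr-/- mouse lacked both copies in all tissues, the Ahr+/- littermates kept 1 copy, and no wild-type skin was among the 12 arrays. IMQ was given as Aldara cream on shaved back skin, so in untreated skin the drug, the cream and its application are all missing and cannot be told apart. Age and sex are not given in the sources used here. Each array is labelled as a biological replicate, and whether it held RNA of 1 mouse or of a pool is not stated. P-values measure the spread between these arrays, whose number limits the precision.

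Values are log2 RMA signals, on which 1 unit is a doubling. The 5 comparisons below share arrays with one another and are not independent. Levels are compared only within a probe set, since probe sets differ in how brightly they report a transcript. The median signal over genes was 7.38 to 7.56 on the 12 arrays. The main Ahr probe set did not separate the genotypes, so they rest on the labels: it read 9.07 to 9.87 in Ahr-/- and 9.79 to 10.27 in Ahr+/- IMQ skin, and 11.29 to 11.44 in Ahr-/- and 10.11 to 11.30 in Ahr+/- untreated skin. A probe set outside the deleted part checks nothing about the labels, and where it lies was not known here. RNA quality differed within 1 group: the 3' minus 5' signal of the Gapdh control sets was 1.17, 1.52 and 0.28 in Ahr-/- IMQ arrays 1 to 3 and 0.14 to 0.53 on the other 9 arrays. Ahr+/- IMQ array 1 stood apart from arrays 2 and 3 of its group, as given beside the results below. Over 11 of 12 genes of the growing hair follicle the mean signal was 5.43 to 6.18 in Ahr-/- and 5.75 to 8.04 in Ahr+/- IMQ skin, and 5.84 to 7.56 in Ahr-/- and 8.55, 12.64 and 8.68 in Ahr+/- untreated skin.

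In RefSeq's gene order on mouse chromosome 2 the ligand genes lie side by side, as Il1f8, Il1f9, Il1f6 and Il1f5, followed by Il1f10 and Il1rn, and Il1rl2 lies on chromosome 1. The promoters below, from 250 bases before to 50 bases after the transcript start in RefSeq (GRCm38.p6), are shown for the agonists Il1f8 and Il1f9, which rose together with IMQ, for the antagonist Il1f5, whose level parted the genotypes, and for the receptor. Il1f6 was not matched. Capitals mark matches on either strand to the AP-1 motif TGANTCA or the C/EBP motif TTNNGCAA. Il1f8 lies at chr2:24152922-24153221, Il1f9 at chr2:24186226-24186525, the first of 2 Il1f5 start sites at chr2:24276704-24277003 and Il1rl2 at chr1:40324339-40324638, all on the plus strand.
Il1f8: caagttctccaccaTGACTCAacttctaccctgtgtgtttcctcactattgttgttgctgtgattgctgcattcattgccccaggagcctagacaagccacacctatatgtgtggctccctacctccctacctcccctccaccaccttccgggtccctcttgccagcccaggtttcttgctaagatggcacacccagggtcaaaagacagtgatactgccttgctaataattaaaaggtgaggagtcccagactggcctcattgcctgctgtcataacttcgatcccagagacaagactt
Il1f9: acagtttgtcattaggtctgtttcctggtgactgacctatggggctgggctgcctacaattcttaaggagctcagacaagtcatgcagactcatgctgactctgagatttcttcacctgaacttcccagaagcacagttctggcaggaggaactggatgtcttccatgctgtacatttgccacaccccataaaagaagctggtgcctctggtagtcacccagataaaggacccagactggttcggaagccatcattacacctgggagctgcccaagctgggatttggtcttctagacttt
Il1f5: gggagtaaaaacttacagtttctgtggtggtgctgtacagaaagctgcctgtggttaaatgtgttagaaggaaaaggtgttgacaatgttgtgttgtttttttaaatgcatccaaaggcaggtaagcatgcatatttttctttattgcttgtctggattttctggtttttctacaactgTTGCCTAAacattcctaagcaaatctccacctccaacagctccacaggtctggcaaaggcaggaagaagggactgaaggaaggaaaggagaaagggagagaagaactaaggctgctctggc
Il1rl2: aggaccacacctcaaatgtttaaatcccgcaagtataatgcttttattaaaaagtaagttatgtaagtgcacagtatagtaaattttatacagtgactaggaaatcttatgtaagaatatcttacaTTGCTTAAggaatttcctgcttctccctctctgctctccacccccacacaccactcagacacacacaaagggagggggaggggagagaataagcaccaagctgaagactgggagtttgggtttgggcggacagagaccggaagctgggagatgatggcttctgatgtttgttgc
The Il1f8 promoter held 1 AP-1 match, TGACTCA, whose first base lies at -236 from the transcript start. Il1f5 held a C/EBP match read on the minus strand at -71 (TTGCCTAA on the plus strand) and Il1rl2 another at -124 (TTGCTTAA). These are letters in a window and not binding sites. Of 32851 RefSeq promoters of the same length, 7.81% held the AP-1 motif and 10.8% the C/EBP motif. GCGTG, the core of the AhR response element, was in 32.4% of all promoters and the κB consensus in 8.46%, and neither was among the letters of the 5 member promoters searched, the second Il1f5 start site (chr2:24277021-24277320) included.

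IMQ raised the agonists Il1f6 and Il1f9 in Ahr-/- skin, and the rise of the agonist Il1f8 was only just called. A gene was called when limma's adjusted p was under 0.05 and the fold change at least 1.5. Called higher were 3 of the 5 IL-36 genes and called lower 0, where 10.6% of all genes were called higher and 12.1% lower. The median log2 difference was 1.26 over the 5 genes and 0.07 over all genes.

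Il1f6 (IL-36α), the agonist with the widest range, read 10.66, 9.40 and 9.86 in Ahr-/- IMQ skin and 6.09, 5.03 and 5.72 in untreated Ahr-/- skin. The groups were apart by more than 3 log2 units at their nearest arrays. The log2 difference was 4.36 (SE 0.50, 95% interval 3.28 to 5.44), or 20.5-fold (adjusted p = 7.26e-05, limma). Il1f9 (IL-36γ) read 9.77, 8.57 and 9.89 with IMQ and 7.32, 7.15 and 7.31 without, again with no overlap. It rose by 2.15 on the log2 scale (SE 0.30), or 4.44-fold (adjusted p = 0.000297, limma). Il1f8 (IL-36β) read 7.75, 6.50 and 8.18 with IMQ and 6.56, 6.18 and 5.89 without, so Ahr-/- IMQ array 2 lay within the untreated range. Its difference of 1.26 (SE 0.44, 2.40-fold) only just passed the test (adjusted p = 0.0469, limma). The Il1f8 call was lost under 15 of 26 alternatives, among them without Ahr-/- IMQ array 3 (0.91, adjusted p = 0.167) and without array 1 (1.13, adjusted p = 0.139). It was kept with larger differences without array 2 (1.75, adjusted p = 0.0108), with array 3 alone (1.97, 0.049) and with the Gapdh covariate (2.04, 0.0195). The antagonist Il1f5 did not pass: it read 10.73, 10.03 and 10.43 with IMQ and 10.09, 9.87 and 9.95 without, a difference of 0.43 (95% interval -0.19 to 1.04, adjusted p = 0.295, limma). The receptor Il1rl2 read 10.48, 10.10 and 10.20 with IMQ and 10.17, 10.20 and 9.51 without, so the groups overlapped (0.30, 95% interval -0.12 to 0.71, adjusted p = 0.279, limma).

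**Figure D1:**
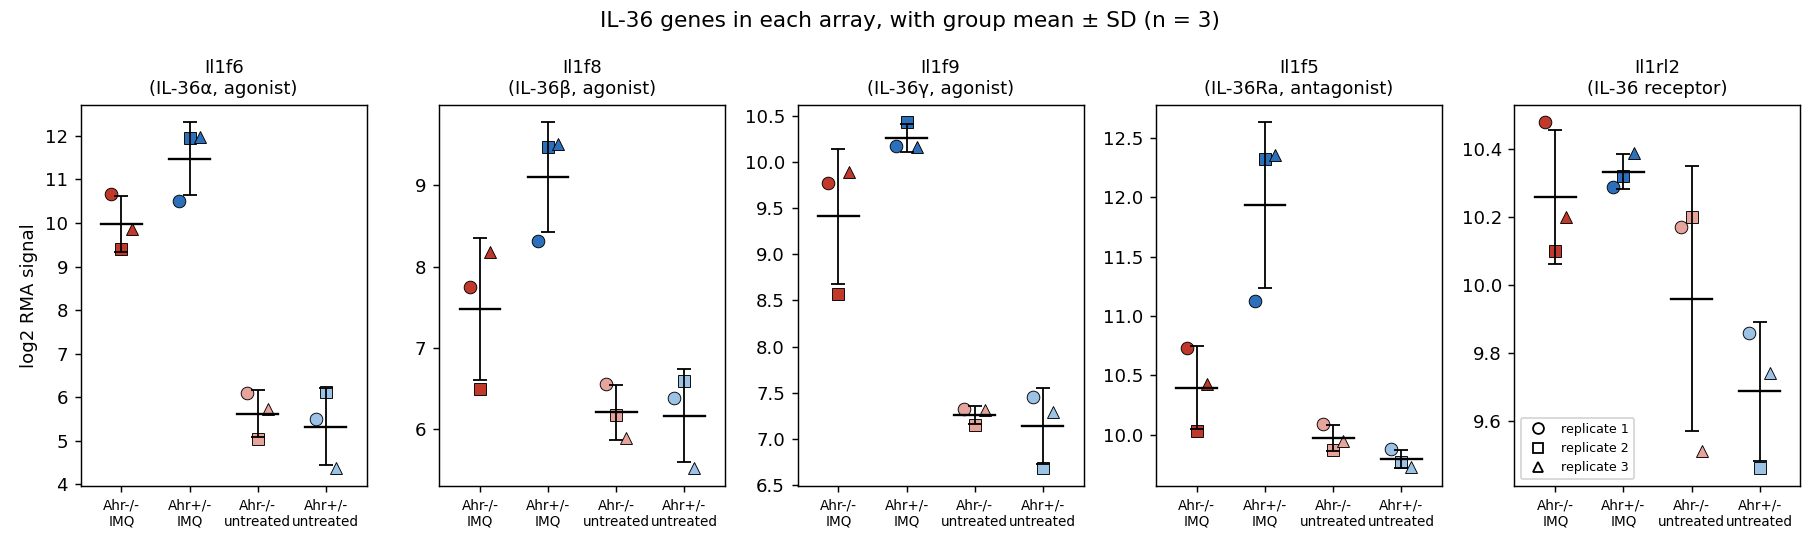
Log2 RMA signal of the 5 IL-36 genes (main probe set of each) on each of the 12 arrays, by group; symbols are replicates, the long bar is the group mean and the whiskers are 1 SD (n = 3), and each panel has its own scale. With IMQ the Ahr-/- arrays of Il1f5 sit between 10.03 and 10.73, all under the Ahr+/- arrays at 11.13 to 12.36.

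In Ahr+/- skin IMQ raised the agonists and the antagonist as well. Called higher were 4 of the 5 genes and lower 0, where 5.22% of all genes were called higher and 3.83% lower. The median log2 difference was 2.94 over the 5 genes and -0.01 over all genes. Genes of the growing hair follicle moved in the same comparison, with 6 of 11 called lower and a median of -3.41, and their part in the IL-36 differences was not tested.

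Il1f6 read 10.51, 11.96 and 11.97 in Ahr+/- IMQ skin and 5.49, 6.12 and 4.36 in untreated Ahr+/- skin. Its log2 difference of 6.16 (SE 0.50), or 71.4-fold, was the largest of the 5 genes in either genotype (adjusted p = 1.39e-05, limma). Il1f9 read 10.17, 10.43 and 10.16 with IMQ and 7.45, 6.68 and 7.29 without, a rise of 3.11 (SE 0.30, 8.64-fold, adjusted p = 5.45e-05, limma). Il1f8 read 8.32, 9.47 and 9.51 with IMQ and 6.38, 6.60 and 5.52 without, a rise of 2.94 (SE 0.44, 7.66-fold, adjusted p = 0.00133, limma). For each agonist every IMQ array lay above every untreated array. The antagonist Il1f5 did the same, with 11.13, 12.32 and 12.36 under IMQ and 9.88, 9.77 and 9.73 without, a rise of 2.14 (SE 0.28, 4.42-fold, adjusted p = 0.000625, limma). The share of all genes whose arrays separate in this way was not taken. In the 3 ligands Il1f6, Il1f8 and Il1f5, Ahr+/- IMQ array 1 was the lowest of its group by more than 1 log2 unit, and in Il1f9 the 3 arrays lay within 0.3. The receptor Il1rl2 read 10.29, 10.32 and 10.39 with IMQ and 9.86, 9.46 and 9.74 without. These groups did not overlap, but the difference of 0.64 (SE 0.19, 95% interval 0.23 to 1.06) missed the threshold (adjusted p = 0.0518, limma). It passed in 6 of 26 alternatives, and its adjusted p over them was 0.00183 to 0.143.

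**Figure D2:**
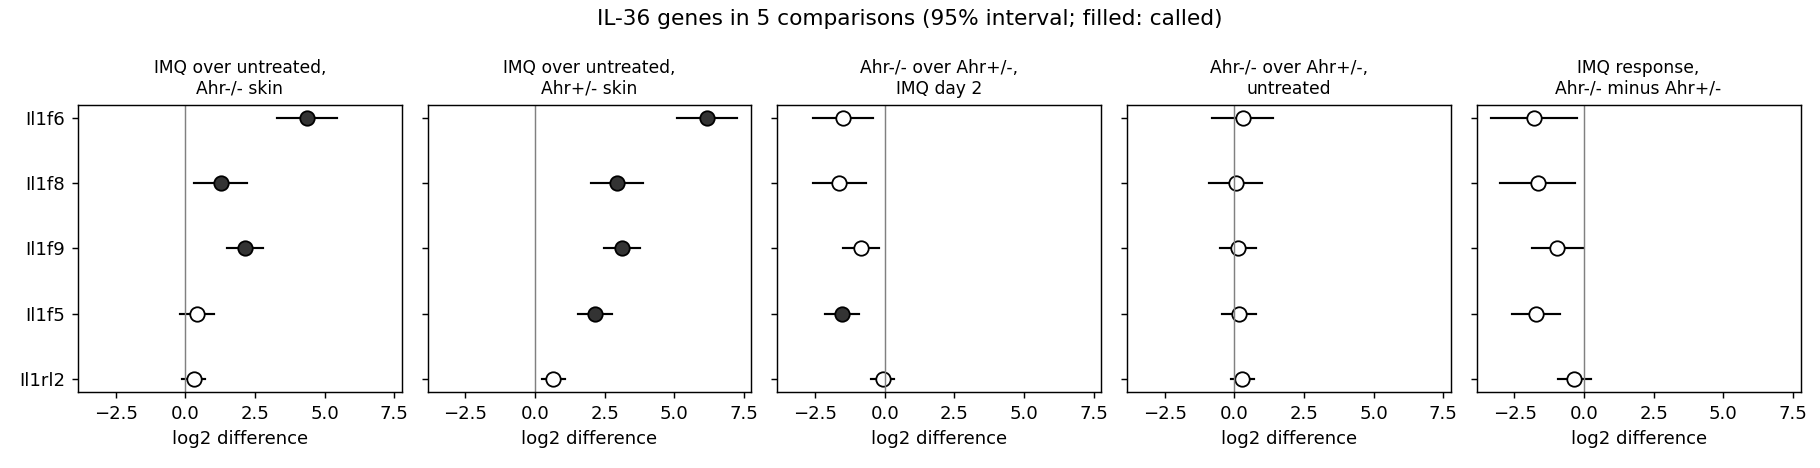
Log2 differences of the 5 IL-36 genes in the 5 comparisons, with 95% intervals from limma over all 12 arrays; filled points were called (adjusted p under 0.05 and at least 1.5-fold). The IMQ difference of Il1f5 is 0.43 in Ahr-/- and 2.14 in Ahr+/- skin, and its day 2 difference of -1.54 is the only filled point in the genotype comparisons.

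On day 2 of IMQ the antagonist Il1f5 was 2.91-fold lower in Ahr-/- than in Ahr+/- skin. Of the 5 genes 0 were called higher and 1, Il1f5, lower, where 2.12% of all genes were called higher and 1.86% lower. The 3 agonists had negative differences as well, at unadjusted p values under 0.05 but not past the adjusted threshold. With Il1f5 included, 4 of the 5 genes had an unadjusted p under 0.05. For this and the other counts at an unadjusted p, the share of all genes was not taken. The median log2 difference was -1.51 over the 5 genes and 0.06 over all genes. In bulk skin, fewer cells of a type and less RNA per cell cannot be told apart.

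Il1f5 averaged 10.39 ± 0.35 in Ahr-/- and 11.94 ± 0.70 in Ahr+/- IMQ skin (SD, n = 3 each), with no overlap between the arrays. The log2 difference was -1.54 (SE 0.28, 95% interval -2.16 to -0.93, adjusted p = 0.0105, limma). The second Il1f5 probe set, tested among all probe sets, gave -1.60 (SE 0.37, adjusted p = 0.0349, limma), from 8.06, 7.41 and 7.57 in Ahr-/- and 8.13, 9.78 and 9.93 in Ahr+/- IMQ skin. On that probe set Ahr+/- IMQ array 1 came within 0.1 of the highest Ahr-/- array. The call on the main probe set was lost in 7 of 26 alternatives, over which the difference stayed between -1.95 and -1.33. It was lost without Ahr+/- IMQ array 2 (-1.35, adjusted p = 0.0643) or array 3 (-1.33, 0.0651), and without Ahr-/- IMQ array 2 (-1.36, 0.0673). With the Gapdh 3' to 5' signal as a covariate the difference was -1.45 with an adjusted p of 0.297, and with array 3 alone for Ahr-/- IMQ skin, the one whose Gapdh signal was like the rest, it was -1.51 with an adjusted p of 0.236. Those 2 settings called 27 and 43 genes of all, against 724 in the full fit.

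Il1f8 averaged 7.48 ± 0.87 in Ahr-/- and 9.10 ± 0.68 in Ahr+/- IMQ skin (SD, n = 3 each), and its highest Ahr-/- array (8.18) lay just under its lowest Ahr+/- array (8.32). The difference was -1.63 (SE 0.44, 95% interval -2.57 to -0.68, adjusted p = 0.0573, limma). Il1f6 averaged 9.97 ± 0.64 in Ahr-/- and 11.48 ± 0.84 in Ahr+/- IMQ skin, and Ahr-/- array 1 (10.66) was above Ahr+/- array 1 (10.51). Its difference of -1.51 (SE 0.50, 95% interval -2.59 to -0.43) did not pass (adjusted p = 0.109, limma). Il1f9 averaged 9.41 ± 0.73 in Ahr-/- and 10.25 ± 0.15 in Ahr+/- IMQ skin, and Ahr-/- array 2 (8.57) was far below the other Ahr-/- arrays. The Il1f9 difference was -0.84 (SE 0.30, 95% interval -1.49 to -0.19, adjusted p = 0.135, limma), and without Ahr-/- array 2 it was -0.42. The receptor Il1rl2 averaged 10.26 ± 0.19 in Ahr-/- and 10.33 ± 0.05 in Ahr+/- IMQ skin, a difference of -0.07 whose 95% interval ran from -0.49 to 0.34 (adjusted p = 0.855, limma).

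Which arrays were left out changed the agonist calls. Without Ahr+/- IMQ array 1, Il1f6 (-1.99, adjusted p = 0.0389, limma), Il1f8 (-2.02, 0.0222) and Il1f5 (-1.95) were all called lower in Ahr-/- skin, and the count was 3. Without Ahr-/- IMQ array 3, or without untreated Ahr+/- array 2, Il1f8 joined Il1f5 and the count was 2. With the Gapdh covariate the adjusted p was 0.832 for Il1f6, 0.953 for Il1f8, whose difference was then -0.67, and 1 for Il1f9.

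**Figure D3:**
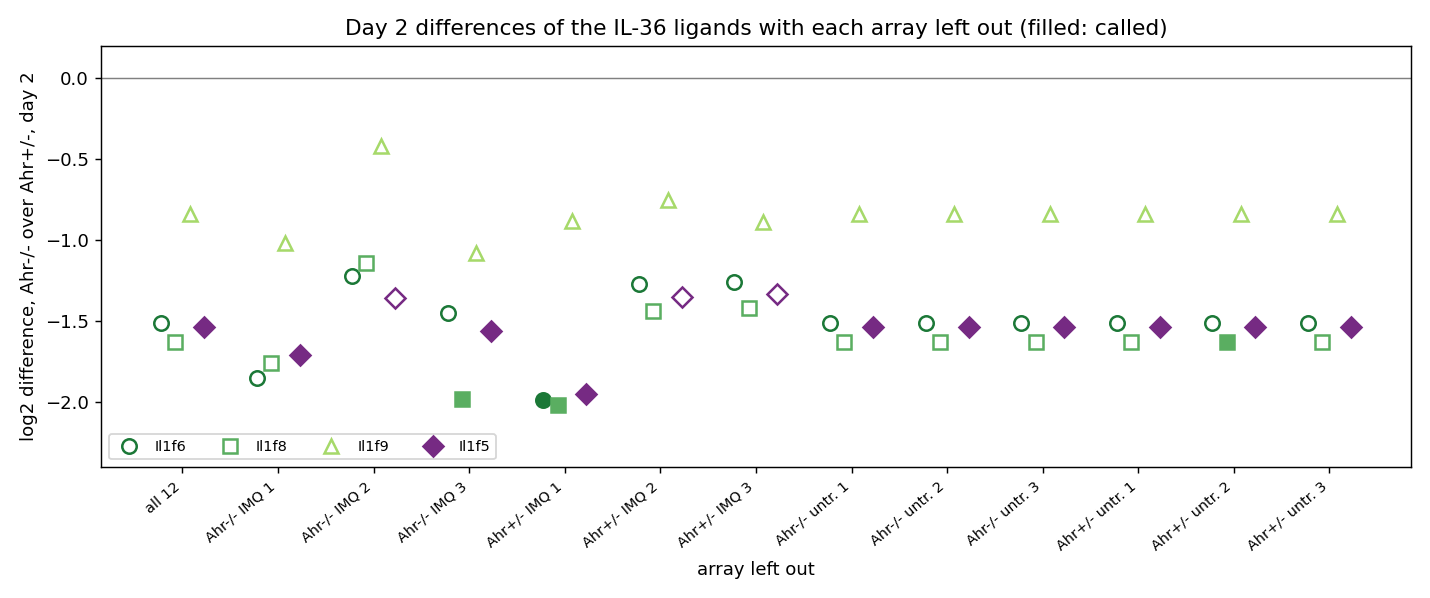
Log2 difference between Ahr-/- and Ahr+/- skin on day 2 of IMQ for the 4 IL-36 ligands, with all 12 arrays and with each array left out; filled symbols were called. Il1f5 stays between -1.95 and -1.33 and loses its call when Ahr-/- IMQ array 2 or Ahr+/- IMQ array 2 or 3 is left out.

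Before IMQ no IL-36 gene passed the test between the genotypes. Of the 5 genes 0 were called higher and 0 lower, where 0.0055% of all genes (1 gene) were called higher and 0% lower, and at an unadjusted p under 0.05 and by the rank product, the count was also 0. The log2 differences, Ahr-/- minus Ahr+/-, were 0.29 for Il1f6 (95% interval -0.79 to 1.37), 0.05 for Il1f8 (-0.90 to 0.99), 0.12 for Il1f9 (-0.53 to 0.77), 0.17 for Il1f5 (-0.44 to 0.79) and 0.27 for Il1rl2 (-0.14 to 0.69). These intervals leave room for differences of more than 1.5-fold in each gene, so equal levels were not shown. The genes of the growing hair follicle differed in the same comparison by a median of -3.27, with 0 of 11 called by limma, 10 lower at an unadjusted p under 0.05 and 10 called by the rank product. Il1f5 varied little between arrays, at 9.97 ± 0.11 in untreated Ahr-/- and 9.79 ± 0.08 in untreated Ahr+/- skin (SD, n = 3 each).

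The log2 difference with IMQ was smaller in Ahr-/- than in Ahr+/- skin for each of the 5 genes, but the difference between the 2 responses was called for 0 of them by limma. Across all genes 0.539% were called higher and 0.786% lower in this comparison. An unadjusted p under 0.05 was found for 4 of the 5 IL-36 genes, all but Il1rl2. The share of all genes at that unadjusted p was not taken. Il1f5 came nearest, with -1.72 (SE 0.40, 95% interval -2.59 to -0.85, adjusted p = 0.0583, limma). Il1f6 had -1.80 (SE 0.70, adjusted p = 0.210), Il1f8 -1.67 (SE 0.62, 0.186), Il1f9 -0.96 (SE 0.43, 0.267) and Il1rl2 -0.35 (SE 0.27, 0.547). The median over the 5 genes was -1.67 and over all genes 0.05. Without Ahr+/- IMQ array 1 the difference for Il1f5 was -2.12 and was called (adjusted p = 0.00151, limma), and without untreated Ahr+/- array 1 it was -1.76 and called (0.0406). With the Gapdh covariate the differences were -1.62 for Il1f5 (adjusted p = 0.398), -0.66 for Il1f8 (0.907) and -0.27 for Il1f9 (0.952), and with array 3 alone for Ahr-/- IMQ skin they were -1.68 (0.318), -0.97 (0.711) and -0.48 (0.747) in the same order. Rises past the threshold in one genotype and not the other, as for Il1f5, are therefore not shown to differ on all 12 arrays.

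The second Il1rl2 probe set averaged 5.29 ± 0.16 in Ahr-/- and 5.45 ± 0.24 in Ahr+/- IMQ skin and 4.71 ± 0.36 in Ahr-/- and 4.64 ± 0.20 in Ahr+/- untreated skin (SD, n = 3 each). That probe set was called higher with IMQ in Ahr+/- skin (0.82, SE 0.20, adjusted p = 0.0207, limma, over all probe sets) and missed in Ahr-/- skin (0.58, SE 0.20, adjusted p = 0.0524). Between genotypes on day 2 it differed by -0.17 (95% interval -0.60 to 0.26). Both receptor probe sets thus had positive IMQ differences in both genotypes, of 0.30 to 0.82.

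The genes around IL-36 were read from lists assembled from general knowledge, with earlier results of these data known. The receptor complex and its signalling chain had 12 of 13 genes measured (Irak4 was not measured here). With IMQ in Ahr-/- skin 4 were called higher and 0 lower, where 10.6% of all genes were called higher and 12.1% lower. The 4 were Nfkbiz (1.75), which encodes IκBζ, the pseudokinase gene Irak3 (1.11), the adaptor gene Myd88 (1.10) and Il1rap (0.89), the accessory chain of the receptor. In Ahr+/- skin 3 were called higher, Nfkbiz (2.28), Irak3 (1.06) and Myd88 (0.76), and 0 lower, where 5.22% of all genes were called higher and 3.83% lower. In the other 3 comparisons 0 of the 12 were called with limma. At an unadjusted p under 0.05 there was 1 higher on day 2, 0 in untreated skin and 1 lower, Sigirr, in the difference of responses, and the rank product called 0 on day 2 and 0 in untreated skin. The median day 2 difference between genotypes was 0.12 over the 12 genes. The smallest p values of the list were those of Il1rap (0.53, SE 0.20, unadjusted p = 0.0188, adjusted p = 0.148) and Myd88 (0.39, adjusted p = 0.323) on day 2, and of Sigirr (-0.60, adjusted p = 0.259) and Il1rap (0.58, 0.302) in the difference of responses.

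Among the 6 other IL-1 family ligands and antagonists, all measured, 4 were called higher with IMQ in Ahr-/- skin and 0 lower, and 4 higher and 1 lower in Ahr+/- skin. Over all genes 10.6% were called higher and 12.1% lower in Ahr-/- skin, and 5.22% higher and 3.83% lower in Ahr+/- skin. The neutrophil- and macrophage-derived cytokine gene Il1b rose by 6.41 in Ahr-/- and 2.24 in Ahr+/- skin, the keratinocyte alarmin gene Il1a by 2.03 in Ahr-/- and 1.88 in Ahr+/- skin, and the alarmin gene Il33 by 1.43 in Ahr-/- and 2.27 in Ahr+/- skin. Il1rn, the IL-1 receptor antagonist gene that ends the same chromosome 2 cluster, rose by 2.06 in Ahr-/- and 2.12 in Ahr+/- skin. On day 2 it averaged 9.62 ± 0.37 in Ahr-/- and 9.41 ± 0.13 in Ahr+/- IMQ skin (SD, n = 3 each), a difference of 0.22 (SE 0.19, adjusted p = 0.549, limma). Il1f10 (IL-38), which lies between Il1f5 and Il1rn, was called lower in Ahr+/- skin (-0.82). Il1b was the 1 gene of the list called between genotypes on day 2: it read 12.55, 12.69 and 12.81 in Ahr-/- and 9.95, 8.08 and 7.74 in Ahr+/- IMQ skin. Its difference of 4.09 (SE 0.45, adjusted p = 0.000585, limma) was positive where those of the IL-36 ligands were negative, and with array 3 alone for Ahr-/- IMQ skin it was 4.21 with an adjusted p of 0.064. Il1b was also the 1 gene called in the difference of responses (4.17, adjusted p = 0.0131).

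IL-36 agonists gain activity when proteases trim their N termini. Of 7 genes for such proteases and their inhibitors, all measured, 2 were called higher with IMQ in each genotype and 0 lower: Slpi, the secretory leukocyte protease inhibitor (5.95 in Ahr-/- and 4.37 in Ahr+/- skin), and the serpin Serpina3n (3.86 in Ahr-/- and 3.03 in Ahr+/- skin). Of all genes 10.6% were called higher and 12.1% lower with IMQ in Ahr-/- skin, and 5.22% higher and 3.83% lower in Ahr+/- skin. On day 2 Slpi alone was called between genotypes, with 13.30, 13.30 and 12.70 in Ahr-/- and 12.25, 11.65 and 11.25 in Ahr+/- IMQ skin (1.38, SE 0.31, adjusted p = 0.0299, limma). Slpi lost this call in 9 of its alternatives. None of the 4 protease genes was called on day 2 by limma or the rank product: Prtn3 (proteinase 3) differed by 1.11 (SE 0.42, unadjusted p = 0.0215, adjusted p = 0.160), Elane (neutrophil elastase) by 0.37 (adjusted p = 0.301), Ctsg (cathepsin G) by 0.09 (0.845) and Ctss (cathepsin S) by -0.25 (0.648). Elane averaged 5.30 in Ahr-/- and 4.92 in Ahr+/- IMQ skin, and Ctsg 4.38 in Ahr-/- and 4.29 in Ahr+/- IMQ skin. RMA compresses such low signals, so equal levels of these 2 were not shown. In the difference of responses 0 of the 7 were called by limma and 2 had an unadjusted p under 0.05, Slpi (1.57, adjusted p = 0.0994) and Prtn3 (1.51, 0.214).

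Part of the genes known to be induced by IL-36 in cultured cells rose with IMQ in each genotype, and part were higher in Ahr-/- skin on day 2. Of 18 measured of 20 (Il17c and Il19 were not measured here), 15 were called higher with IMQ in Ahr-/- and 10 in Ahr+/- skin, where 10.6% of all genes were called higher in Ahr-/- and 5.22% in Ahr+/- skin, and 0 were called lower in either. The alarmin genes S100a9 (8.35 in Ahr-/- and 8.23 in Ahr+/- skin) and S100a8 (7.74 in Ahr-/- and 7.12 in Ahr+/- skin) were among those called in both, and read up to 14.92 and 14.74 under IMQ. The highest signals on the 12 arrays were 14.75 to 14.98, so these probe sets were near the top of the scale, where differences are capped. Below it, Cxcl2 rose by 8.95 in Ahr-/- and 4.13 in Ahr+/- skin, and Lcn2, which encodes the iron-scavenging lipocalin of neutrophils and keratinocytes, by 7.62 in Ahr-/- and 6.26 in Ahr+/- skin. Cxcl5 rose by 7.77 in Ahr-/- skin, and its difference of 2.75 in Ahr+/- skin did not pass (SE 1.00, adjusted p = 0.105, limma). Many of these genes are also induced by other cytokines. The neutrophil chemokine gene Cxcl2 read 13.42, 13.57 and 13.17 in Ahr-/- and 10.67, 7.82 and 5.99 in Ahr+/- IMQ skin, a difference of 5.23 (SE 0.79, adjusted p = 0.00351, limma). Cxcl5, another neutrophil chemokine gene, differed by 5.31 (SE 1.00, adjusted p = 0.0119), Ccl3 by 5.0 (SE 0.57, adjusted p = 0.000714) and Ccl4 by 3.58 (SE 0.31, adjusted p = 8.37e-05). The median difference between genotypes on day 2 was 1.39 over the 18 genes and 0.06 over all genes. In all, 8 of the 18 were called higher in Ahr-/- skin on day 2 and 0 lower, where 2.12% of all genes were called higher and 1.86% lower. That count was 1 with the Gapdh covariate, 2 with array 3 alone for Ahr-/- IMQ skin and 5 without Ahr+/- IMQ array 2. Ccl20, a chemokine gene of keratinocytes, had the lowest difference of the list, and read 9.64, 8.31 and 8.58 in Ahr-/- and 9.34, 11.04 and 10.35 in Ahr+/- IMQ skin (-1.40, SE 0.48, adjusted p = 0.122). In the difference of responses 3 genes were called, Ccl3 (4.62), Ccl4 (3.70) and Tnf (1.49), where 0.539% of all genes were called higher and 0.786% lower. Untreated skin gave 0 calls with limma, with the rank product and at an unadjusted p under 0.05.

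In untreated skin the smallest p values between genotypes were, list by list, those of Traf6 (0.24, adjusted p = 0.774) and Sigirr (0.32, 0.787), of Il33 (0.89, 0.754) and Il1f10 (-0.30, 0.802), of Ctss (0.63, 0.756) and Serpinb1a (0.29, 0.891), and of S100a9 (0.51, 0.793) and Il12b (-0.27, 0.816), and limma called 0 genes in each of the 4 lists. At an unadjusted p under 0.05 there were 2, Il33 and Ctss, and the rank product called 0.

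**Figure D4:**
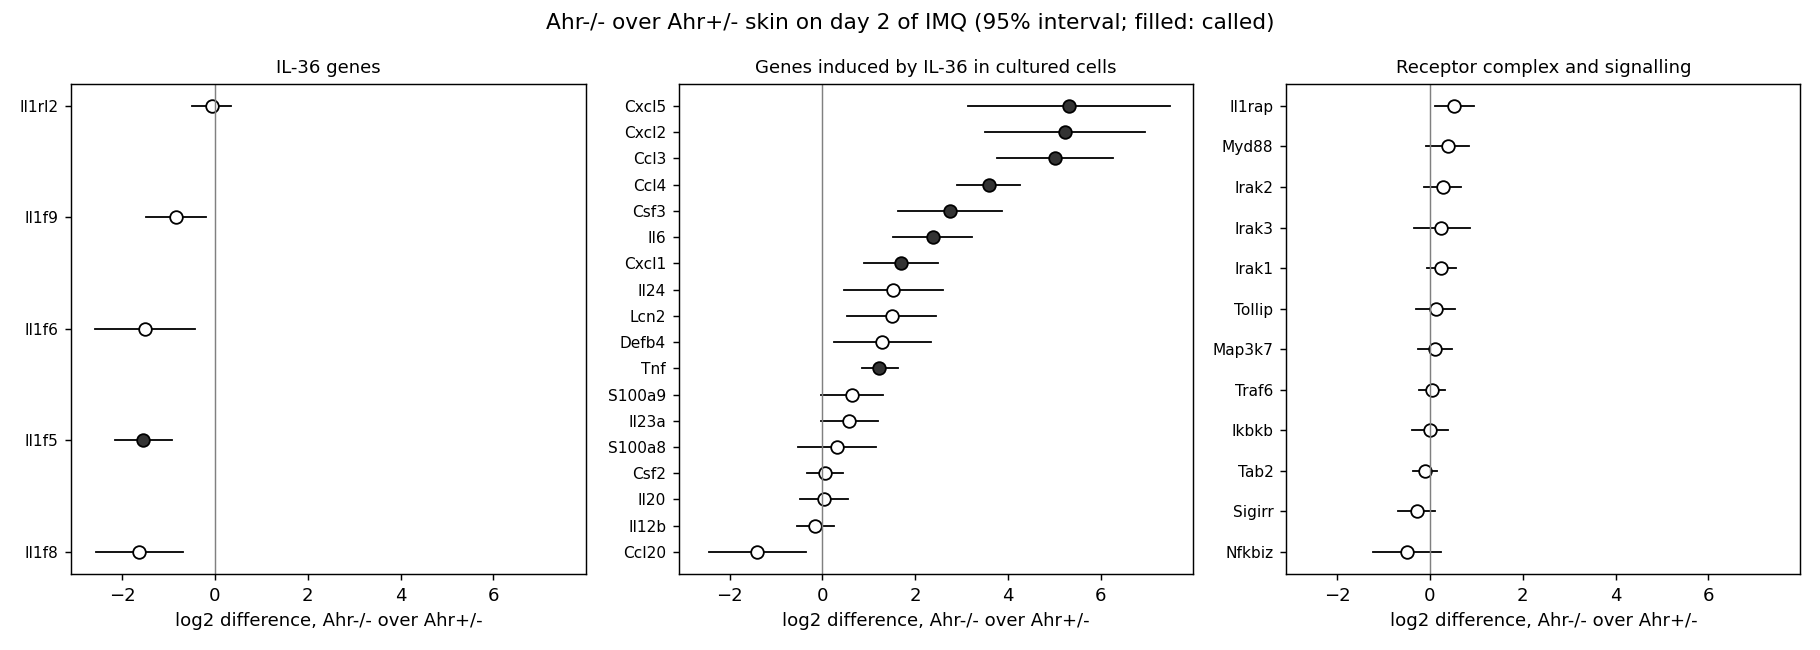
Log2 difference between Ahr-/- and Ahr+/- skin on day 2 of IMQ, with 95% intervals, for the 5 IL-36 genes (left), 18 genes induced by IL-36 in cultured cells (middle) and 12 genes of the receptor complex and its signalling (right); filled points were called. The ligands lie between -1.63 and -0.84, and the 8 filled genes of the middle panel lie between 1.23 and 5.31.

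Mean levels of neutrophil and of keratinocyte markers did not overlap between the genotypes on day 2. Over 7 of 8 neutrophil markers the mean log2 signal was 7.74 to 7.95 in Ahr-/- and 6.66, 5.94 and 5.89 in Ahr+/- IMQ skin, against 5.44 to 5.71 in Ahr-/- and 5.26 to 5.80 in Ahr+/- untreated skin. Over 7 of 8 keratinocyte markers it was 11.51 to 12.01 in Ahr-/- and 12.44, 13.52 and 13.48 in Ahr+/- IMQ skin, against 13.06 to 13.34 in Ahr-/- and 12.80 to 13.39 in Ahr+/- untreated skin. Among the Ahr-/- IMQ arrays, array 1 had the highest Il1f6 and Il1f5 and the lowest keratinocyte mean. Array 3 had the highest Il1f8 and Il1f9 and the highest keratinocyte mean. The suprabasal keratin gene Krt10 read 10.74, 10.64 and 11.59 in Ahr-/- and 12.32, 14.33 and 14.46 in Ahr+/- IMQ skin. The keratinocyte markers did not move alike between genotypes on day 2. The log2 differences were -2.79 for Krt1, -2.71 for Krt10, -2.20 for Lor and -1.58 for Krt15. They were -0.30 for Trp63, -0.18 for Krt5 and -0.02 for Krt14, so the gap in the measured mean lay mainly in the first of these groups. Krt14 read 14.68 to 14.76 in Ahr-/- and 14.64 to 14.84 in Ahr+/- IMQ skin. These signals are near the top of the scale, where differences are capped, so an unchanged level of Krt14 was not shown. Nor did the neutrophil markers move alike. Mmp8 (3.83), Csf3r (2.30), Ngp (2.30) and Cxcr2 (1.90) were called higher in Ahr-/- skin on day 2, where 2.12% of all genes were. Camp (0.61), Ltf (0.61) and Mpo (0.25) were not called. Day 2 means over the other lists overlapped between genotypes for macrophage markers (10.74 to 11.50 in Ahr-/- and 10.99 to 11.48 in Ahr+/- IMQ skin), dendritic and Langerhans cell markers (6.30 to 6.51 in Ahr-/- and 6.33 to 6.54 in Ahr+/- IMQ skin) and T cell markers (6.99 to 7.39 in Ahr-/- and 6.87 to 7.52 in Ahr+/- IMQ skin). Single markers did not all follow these means: the macrophage marker Adgre1 (F4/80) was called lower in Ahr-/- skin, with 9.62, 9.31 and 9.99 in Ahr-/- and 11.21, 11.11 and 11.39 in Ahr+/- IMQ skin (-1.60, SE 0.30, adjusted p = 0.0119, limma). Among the T cell markers Cd3g (-1.47, adjusted p = 0.0811) and Thy1 (1.01, 0.0835) had differences of opposite sign, and the Langerhans cell marker Cd207 had -0.97 (0.101). Ahr+/- IMQ array 1, with the lowest Il1f6, Il1f8 and Il1f5 of its group, also had the lowest keratinocyte and the highest neutrophil mean of its group. The part of cell composition, and of the Gapdh signal, in the IL-36 differences was not tested beyond the covariate fit above.

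**Figure D5:**
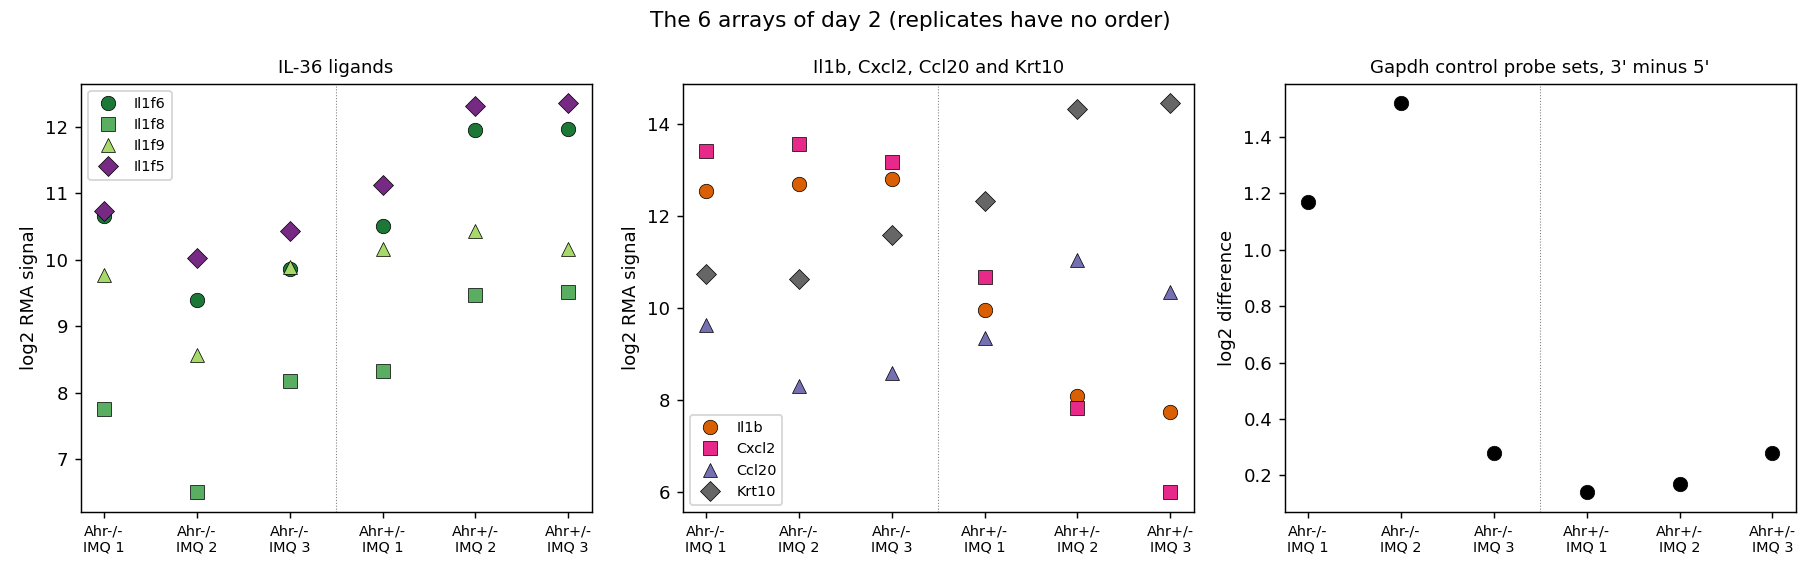
Log2 RMA signal of the 4 IL-36 ligands (left) and of Il1b, Cxcl2, Ccl20 and Krt10 (middle), and the Gapdh control sets as 3' minus 5' log2 signal (right), on the 3 Ahr-/- and 3 Ahr+/- IMQ arrays; levels compare only within a gene. Ahr+/- array 1 lies nearest to the Ahr-/- arrays in Il1f5, Il1b, Cxcl2 and Krt10, and the Gapdh difference is 1.17 and 1.52 on Ahr-/- arrays 1 and 2.

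The 5 profiles were also matched with every other gene, as the root mean square (RMS) difference in log2 signal over the 12 arrays after each gene was centred on its mean. This likeness is a description over arrays that share their groups. Il1f8 was nearest, among the IL-36 genes, to Il1f5 (RMS 0.55) and Il1f9 (0.60), where its own RMS about its mean was 1.31. Il1f6 moved further than the others (its own RMS was 2.75) and lay 1.48 or more from each of them. Its nearest genes were Serpinb3a (0.78), Chil1 (0.81), Prss27 (0.84), Lce3f (0.84) and Aox4 (0.90), which include a clade B serpin, a chitinase-like protein and a late cornified envelope protein. Nearest to Il1f8 were Ccl20 (0.58), Dsg1b (0.59), a desmoglein, and Atp13a4, Mal2 and Dnase1l2 (0.64 each). Il1f9 was nearest to Tmigd1 (0.46), Ptprz1 (0.47), Abcc3 (0.49), Slc6a20a (0.52) and Tmem45b (0.52). Nearest to Il1f5 were Ereg (0.31), which encodes the EGF receptor ligand epiregulin, Cers4 (0.35), Atp13a5 (0.35), Ggct (0.36) and Lce1g (0.38). Il1rl2 moved little (its own RMS was 0.32), and Atp10d (0.14), Pdcd6ip, Actr3, Traf6 and Pnpla7 (0.16 each) were nearest to it.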

How the data were processed

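The authors deposited 1 table of log2 signals for 45101 probe sets on 12 arrays, made by RMA (background correction, quantile normalization and median polish) with the affy package (version not stated in the sources used here). RMA sets all arrays to 1 distribution, so differences are relative to the bulk of genes, and it compresses low signals. No depth or background file was used. Control sets (64), sets of several genes (932) and sets with no symbol (9160) were left out, and each of 18193 genes was read on its probe set with the highest mean signal. Il1f9 is also an older name of Il1f6, so the array's own annotation was used. limma 3.58.1 in R 4.3.3 was fitted to the 4 groups together (residual df 8, prior df 4.44), with p-values adjusted by Benjamini-Hochberg over all 18193 genes in each of 5 comparisons. A call needed an adjusted p under 0.05 and at least 1.5-fold. The rank product (pfp under 0.01, 100 permutations), which the study's methods name, was an alternative, with other normalization, filters, covariates and left-out arrays. Both tests were checked on simulated data. Arrays share replicate numbers across groups, and the main fit did not pair arrays by them. The members and gene lists were chosen with earlier results of these data known. Every probe set of a member was reported. Named besides were, per list and comparison, up to 4 called genes with the largest change (the smallest p where none was called), the 5 genes nearest each member, and the Ahr and Gapdh control sets. Il1rn, Il1f10, Elane, Ctsg, Ctss, Prtn3, Lcn2, Cxcl5, Ccl20, Adgre1, Cd3g, Thy1, Cd207 and the measured keratinocyte and neutrophil markers were also given values where the rule did not name them, chosen after their values were seen.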

Additional observations from a re-analysis of the deposited data

How the results depend on the processing

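Of 640 alternative values for the 25 results of the 5 IL-36 genes, 591 kept their direction and their side of the threshold, 23 lost a call, 17 gained one and 9 changed sign. No rise with IMQ of Il1f6 in either genotype, or of Il1f8, Il1f9 and Il1f5 in Ahr+/- skin, lost its call. With IMQ in Ahr-/- skin the count of IL-36 genes called was 3. Il1f8 lost its call in 15 of 26 alternatives, which left a count of 2, or of 1 with the rank product. There Il1f8 had a pfp of 0.131 and Il1f9 of 0.0136. On day 2 the count was 1, and 0 at an adjusted p under 0.01, with the Gapdh covariate, with Ahr-/- IMQ array 3 alone and with the rank product, where Il1f5 had a pfp of 0.0135. Array weights gave 4, and leaving out 1 array gave 0 to 3. In the difference of responses the count was 0, and 2 with array weights, and leaving out 1 array gave 0 to 1. The cause of these shifts was not tested. All 9 changes of sign were in differences near 0. Il1rl2 on day 2 was 0.01 with array weights and 0.01 without Ahr-/- IMQ array 2. In untreated skin, Il1f6 was -0.19 and Il1f8 was -0.28 without Ahr+/- array 3, and Il1f8 was -0.02 after a further quantile normalization, -0.01 with the Gapdh covariate and -0.13 without Ahr-/- array 1. Il1f9 there was -0.03 with array weights and -0.11 without Ahr+/- array 2. Leaving out 1 array gave -0.18 to 0.01 for Il1rl2 on day 2 and, in untreated skin, -0.19 to 0.69 for Il1f6, -0.28 to 0.26 for Il1f8 and -0.11 to 0.27 for Il1f9. Of the named list genes, 874 of 954 alternative values kept their call and 80 lost it, 15 of them for Myd88 in Ahr+/- skin.

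Deviations of same-numbered arrays from their group means had correlations of -0.18 to 0.32 between groups. Arrays of different numbers were not correlated beside them, so whether the numbers pair the arrays was not settled. With the replicate number as a block, the day 2 comparison called 684 genes in place of 724, the untreated one 3 in place of 1, the difference of responses 221 in place of 241, and IMQ 4145 in place of 4130 in Ahr-/- and 1659 in place of 1646 in Ahr+/- skin. Of the IL-36 calls, the block ended that of Il1f8 in Ahr-/- skin (1.26, adjusted p = 0.0706). The 3 arrays a group limit the precision: in untreated skin the 95% intervals of Il1f6 and Il1f8 reached 1.37 and 0.99.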
